A study of Mus musculus with 6 samples.

Results

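The transcripts described here are those of 9 proneural and neuronal basic helix-loop-helix (bHLH) factors, namely *Neurog1*, *Neurog2*, *Atoh1*, *Olig3* and *Ptf1a* of the progenitor stage and *Neurod1*, *Neurod4*, *Nhlh1* and *Nhlh2* of newborn neurons. They were taken by gene symbol from a table of 23097 loci with a symbol, and each of the 9 had 1 entry that was alone in its locus. The set was selected on the difference of its FPKM between genotypes in this same table, so its levels and ratios are described without a test. The table comes from RNA-seq of 6 whole male mouse embryos at E9.5, 3 Smchd1+/+ and 3 Smchd1MommeD1/MommeD1, and the comparison asks which transcripts depend on Smchd1. MommeD1 is a nonsense allele from a chemical mutagenesis screen, and homozygous embryos carry it in every cell. The sample labels name the background as C57Bl6/J x FVB/n for both genotypes, whereas the study's text describes a backcross to 129 T2/SvEms. The authors' unit is FPKM, fragments per kilobase of transcript scaled to the mapped fragments of the library, with 1 pooled value for each genotype. The spread between embryos is therefore unknown, and every ratio below compares 2 pooled values.

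Proneural factors such as *Neurog1*, *Neurog2* and *Atoh1* are bHLH activators that bind DNA at E-boxes as dimers with the broadly expressed E proteins. In the neural tube and cranial placodes they commit dividing progenitors to a neuronal fate, induce Notch ligands and switch on a later set of bHLH factors in cells that leave the cell cycle. Hes and Hey repressors, acting downstream of Notch, and Id proteins, which sequester E proteins, hold progenitors back. *Neurog1* and *Neurog2* drive sensory and spinal neurogenesis, *Atoh1* and *Olig3* specify the most dorsal neural progenitors, and *Ptf1a* specifies inhibitory neurons and pancreas. *Neurod1* and *Neurod4* act after the neurogenins, and *Nhlh1* and *Nhlh2* mark neurons that have just been born.

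*Smchd1* itself, on chromosome 17, was at 2.12 FPKM in Smchd1MommeD1/MommeD1 and 34.0 FPKM in Smchd1+/+ embryos, which matches the genotype labels. Loci with a symbol were counted as expressed where the average of both genotypes reached 1 FPKM, which held for 11980. Of these, 3.20% were at least 1.5-fold higher and 1.08% at least 1.5-fold lower in Smchd1MommeD1/MommeD1 embryos, 4.27% in all. The median log2 ratio over these loci was -0.01, with 0.1 FPKM added to each value before division, as in all log2 ratios here. Markers of the whole embryo were present, since all 7 heart muscle, 6 endothelial, 8 erythroid and 7 neural crest markers averaged 1 FPKM or more.

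The sequences before the start sites of *Nhlh2*, *Nhlh1* and *Neurog1* are shown as examples with and without an E-box. The *Nhlh* genes were chosen for the highest ratios among the expressed members, and both hold the E-box CAGATG, which many proneural dimers bind. *Neurog1* was chosen as a member with no E-box there. Whether E-boxes relate to the ratios was not tested. *Olig3* (log2 ratio 0.55) also held an E-box, and *Neurod4* (0.90) held none. Capitals mark every match to the general E-box CANNTG, sequences run 5′ to 3′ on the gene's strand, and they come from RefSeq, build GRCm38.p6. The stretch shown is up to 250 bases before the RefSeq start site, without bases that GENCODE M21 places inside the gene. It covers chr3:102009895-102010075 on the plus strand for *Nhlh2*, and chr1:172057597-172057846 and chr13:56252181-56252430 on the minus strand for *Nhlh1* and *Neurog1*.
Nhlh2: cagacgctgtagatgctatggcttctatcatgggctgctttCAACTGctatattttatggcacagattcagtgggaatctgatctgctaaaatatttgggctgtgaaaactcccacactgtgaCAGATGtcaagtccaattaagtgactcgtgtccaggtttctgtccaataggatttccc
Nhlh1: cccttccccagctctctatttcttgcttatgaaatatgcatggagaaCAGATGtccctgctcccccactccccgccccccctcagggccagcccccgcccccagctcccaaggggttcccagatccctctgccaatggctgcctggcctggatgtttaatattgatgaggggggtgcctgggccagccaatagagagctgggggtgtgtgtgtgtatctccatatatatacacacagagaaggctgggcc
Neurog1: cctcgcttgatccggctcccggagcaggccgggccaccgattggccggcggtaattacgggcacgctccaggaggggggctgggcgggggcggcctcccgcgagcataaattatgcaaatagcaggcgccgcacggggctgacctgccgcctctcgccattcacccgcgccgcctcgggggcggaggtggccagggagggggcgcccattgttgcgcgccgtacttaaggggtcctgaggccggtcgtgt

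All 9 members were matched in the RefSeq table, and 4 of them held a CANNTG in the 250 bases, against 66.2% of 32851 start sites. *Nhlh2* held 2, which were CAACTG at 209 bases before the start site and, nearer to it at 127 bases, CAGATG. *Nhlh1* held a single match at 203 bases, which was also CAGATG. *Olig3* held CAACTG at 30 bases and *Neurod1* held CATATG at 242 bases. Counted on either strand, the form CAGATG, which is contained in the general E-box, was found before 2 of the 9 genes and before 14.4% of all start sites. A further form, CAGCTG, was found before none of the 9 genes and before 13.0% of all start sites. The upstream windows also differed in composition, from 42% G and C for *Nhlh2* to 71.2% for *Neurog1*, with a median of 52.4% over all start sites. A match is a run of letters, and its occupancy was not measured in these embryos.

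All 9 members had a higher FPKM in Smchd1MommeD1/MommeD1 embryos, and 48.1% of the expressed loci were higher there at all. The selection used this difference, so nothing is read from the common direction. Together they summed to 49.7 FPKM in Smchd1MommeD1/MommeD1 and 25.5 FPKM in Smchd1+/+ embryos, a 1.95-fold difference of levels per length. The progenitor-stage factors summed to 25.3 and 15.7 FPKM, a 1.61-fold difference. The newborn-neuron factors summed to 24.4 and 9.77 FPKM, a 2.49-fold difference. The newborn-neuron factors thus made up 49.0% of the summed FPKM in Smchd1MommeD1/MommeD1 and 38.3% in Smchd1+/+ embryos. In bulk tissue, more cells of a type and more RNA per cell cannot be told apart.

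**Figure D1:**
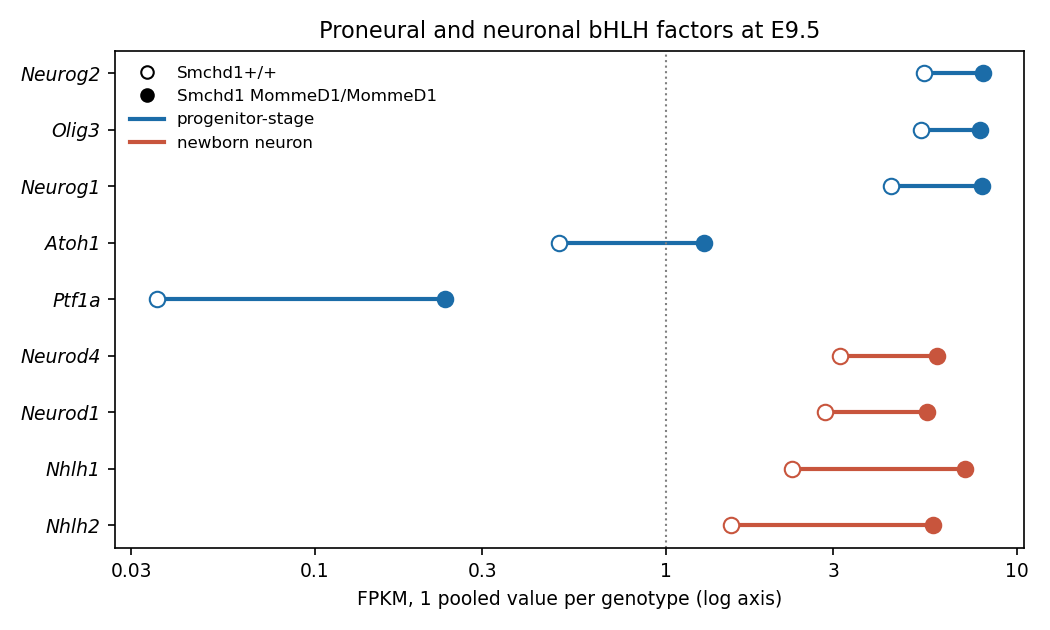
FPKM of the 9 members on a log axis, with 1 pooled value per genotype, open for Smchd1+/+ and filled for Smchd1MommeD1/MommeD1 embryos; blue marks progenitor-stage and red newborn-neuron factors, and the dotted line is at 1 FPKM. Every filled point lies to the right of its open point, and the step is longest for *Ptf1a* and, among genes above 1 FPKM in both genotypes, for *Nhlh2*.

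Among the progenitor-stage factors, *Neurog2* on chromosome 3 (locus 127630884 to 127635631, mm10) was the most abundant, at 8.0 FPKM in Smchd1MommeD1/MommeD1 and 5.45 FPKM in Smchd1+/+ embryos, a log2 ratio of 0.55. *Neurog1*, its close relative on chromosome 13 (56250498 to 56252166), was at 7.96 and 4.39 FPKM, a log2 ratio of 0.84. The neurogenins were thus at nearly the same level in Smchd1MommeD1/MommeD1 embryos, with *Neurog1* at 0.994 times *Neurog2*, whereas in Smchd1+/+ embryos *Neurog1* was at 0.806 times *Neurog2*. *Olig3*, on chromosome 10 (19352730 to 19358611), was at 7.86 and 5.33 FPKM, a log2 ratio of 0.55 like that of *Neurog2*. Both *Neurog2* and *Olig3* fell just short of the 1.5-fold mark, with 1.46-fold and 1.47-fold differences after 0.1 FPKM was added, and *Neurog1* passed it.

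The dorsal factor *Atoh1*, on chromosome 6 (64729146 to 64731235), was rare, at 1.28 FPKM in Smchd1MommeD1/MommeD1 and 0.497 FPKM in Smchd1+/+ embryos, a log2 ratio of 1.21. *Ptf1a*, on chromosome 2 (19445663 to 19447501), was near the floor of the table at 0.234 and 0.0354 FPKM. Its log2 ratio was 1.30 with 0.1 FPKM added and 2.73 without, so the size of its difference is set by the pseudocount. GENCODE M21 places an antisense gene, *Ptf1aos*, over *Ptf1a*, and because the libraries were nondirectional, reads of these genes cannot be told apart. With means of 0.890 and 0.135 FPKM, *Atoh1* and *Ptf1a* did not pass the filter at 1 FPKM and are left out of the medians below.

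All 4 newborn-neuron factors passed the 1.5-fold mark. *Nhlh2*, on chromosome 3 (102010145 to 102015492), was at 5.76 FPKM in Smchd1MommeD1/MommeD1 and 1.53 FPKM in Smchd1+/+ embryos, a log2 ratio of 1.85 that ranked 15 among the 11980 loci, counted from the highest. *Nhlh1*, on chromosome 1 (172052292 to 172058267), was at 7.13 and 2.28 FPKM, a log2 ratio of 1.60 that ranked 27. The *Nhlh* pair thus had the largest differences among the expressed members, and *Nhlh1* stayed the more abundant of the pair in both genotypes.

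*Neurod4*, on chromosome 10 (130268003 to 130280240), was at 5.92 FPKM in Smchd1MommeD1/MommeD1 and 3.13 FPKM in Smchd1+/+ embryos, a log2 ratio of 0.90. *Neurod1*, on chromosome 2 (79452641 to 79456636), was at 5.55 and 2.83 FPKM, a log2 ratio of 0.95. The *Neurod* genes kept nearly the same proportion to each other, with *Neurod1* at 0.938 times *Neurod4* in Smchd1MommeD1/MommeD1 and 0.905 times in Smchd1+/+ embryos. *Neurod1* overlaps the annotated span of *Cerkl* on the same strand and the long noncoding RNA gene *Gm26755* on the other. Some of its reads may therefore belong to these.

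In Smchd1+/+ embryos every progenitor-stage factor above 1 FPKM was more abundant than every newborn-neuron factor, in the order *Neurog2*, *Olig3*, *Neurog1*, *Neurod4*, *Neurod1*, *Nhlh1*, *Nhlh2*, *Atoh1* and *Ptf1a*. In Smchd1MommeD1/MommeD1 embryos *Nhlh1* came directly after *Neurog2*, *Neurog1* and *Olig3*, and *Nhlh2* lay between *Neurod4* and *Neurod1*. *Atoh1* and *Ptf1a* were again last. Which neighbours in these orders differ beyond the spread between embryos cannot be said from pooled values. *Nhlh2* was at 0.280 times *Neurog2* in Smchd1+/+ and 0.720 times in Smchd1MommeD1/MommeD1 embryos. *Neurod4*, in contrast, moved from 0.574 to 0.740 times *Neurog2*.

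The median log2 ratio was 1.28 over the 4 newborn-neuron factors and 0.55 over the 3 expressed progenitor-stage factors, a difference of 0.72. In all 12 pairs of these genes the newborn-neuron factor had the larger ratio. With *Atoh1* and *Ptf1a* included this held in 16 of 20 pairs, since both had larger ratios than *Neurod1* and *Neurod4*, and the difference of medians was then 0.43. Without the most abundant member of each role, *Neurog2* and *Nhlh1*, the difference was 0.25. In all, 5 members were at least 1.5-fold higher and none was lower, beside the 3.20% of loci at least 1.5-fold higher. The *Nhlh* genes alone were expressed and at least 2-fold higher, beside 0.860% of loci.

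**Figure D2:**
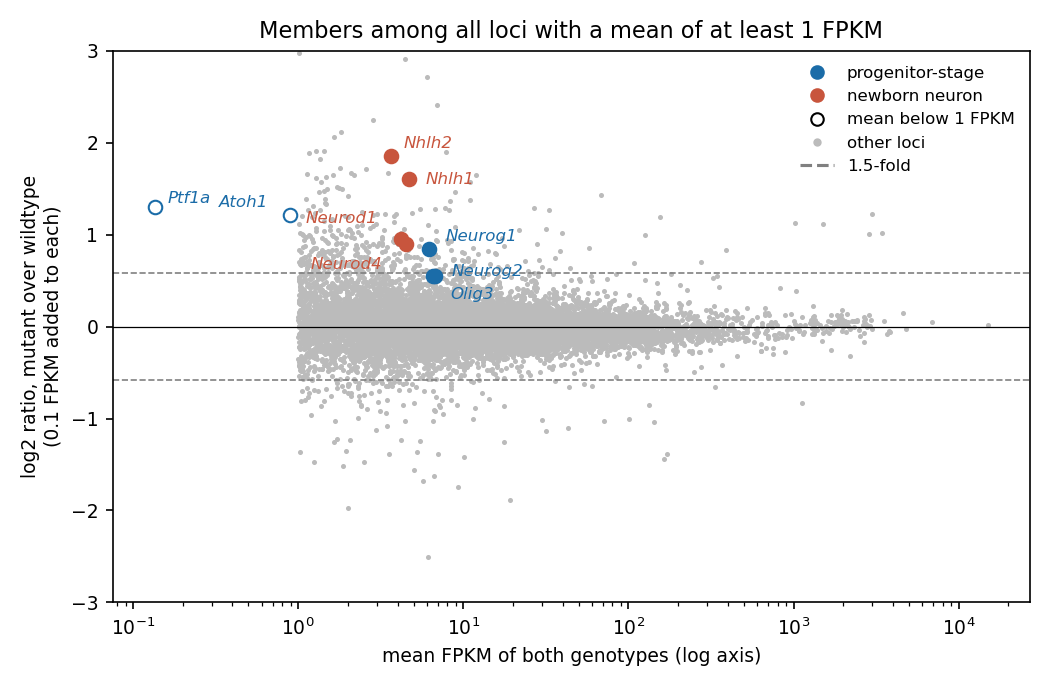
Log2 ratio of Smchd1MommeD1/MommeD1 over Smchd1+/+ against mean FPKM on a log axis, with grey points for the expressed loci, colored points for the members, open where the mean is below 1 FPKM, and dashed lines at 1.5-fold; 9 loci beyond 3 either way are not drawn. *Nhlh2* and *Nhlh1* lie above nearly all loci of like abundance, and *Neurog2* and *Olig3* lie just under the upper line.

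The members lie on 6 chromosomes, and where 2 share a chromosome they are far apart, 25.6 Mb for *Nhlh2* and *Neurog2*. Genes near them had smaller ratios than the member, with 1 exception. Over 31 other expressed loci within 500 kb of a member the median log2 ratio was 0.04. *Cxcl14*, a chemokine gene near *Neurog1*, was the 1 neighbour past 1.5-fold, at 4.22 and 2.23 FPKM (log2 ratio 0.89), and was singled out after its value was seen. The 11 neighbours of *Nhlh1* had log2 ratios from -0.03 to 0.51, and *Vangl1*, a planar polarity gene near *Nhlh2*, was at -0.22. *Neurod4* had no expressed neighbour in this window. In GENCODE M21 the longest transcripts of *Neurog1*, *Atoh1* and *Olig3* have 1 exon and those of the other members have 2.

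**Figure D3:**
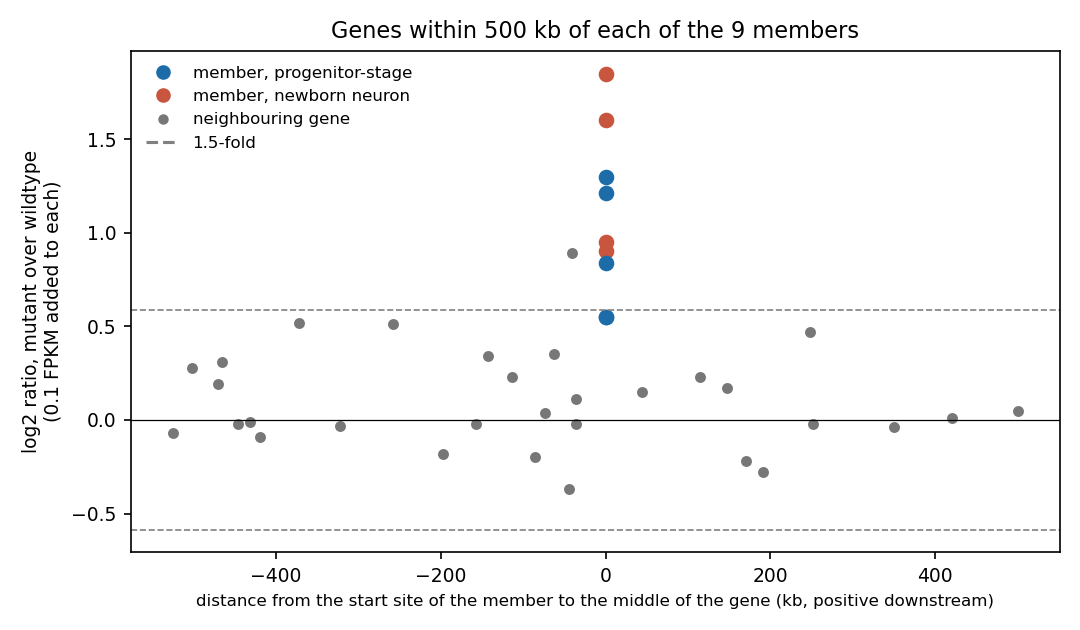
Log2 ratio of Smchd1MommeD1/MommeD1 over Smchd1+/+ for genes within 500 kb of a member, against the distance in kb from the member's start site to the middle of the gene; members are drawn in color at 0 kb, neighbours in grey, and dashed lines mark 1.5-fold. Of the 31 neighbours, 30 lie between the dashed lines.

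Other neural bHLH factors that were expressed had smaller ratios than most of the expressed members. Of 13 listed, 5 were expressed, and all 5 were higher in Smchd1MommeD1/MommeD1 embryos, 1 of them by at least 1.5-fold. Those below the filter had log2 ratios from -0.06 for *Atoh7* to 1.57 for *Neurog3*, a range that includes the ratios of *Atoh1* and *Ptf1a*. The median log2 ratio of the expressed genes was 0.16, and it was 0.51 with a filter at 0.1 FPKM. After rescaling both genotypes to the same total FPKM, 4 of the expressed genes were higher and *Atoh8* was lower. *Olig2*, which specifies motor neuron and oligodendrocyte progenitors, was at 5.71 and 5.09 FPKM (0.16), and *Atoh8* was at 8.59 and 8.52 FPKM (0.01). *Olig2* and *Atoh8* were thus nearly equal between genotypes.

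The dimer partners of the members and the inhibitors *Id1*, *Id2* and *Id3* were close to equal between genotypes. The E proteins *Tcf3*, *Tcf12* and *Tcf4* had log2 ratios of 0.09, 0.09 and 0.16, and none of the 3 passed 1.5-fold. *Id1*, *Id2* and *Id3* were abundant, at 93.5 to 179 FPKM in Smchd1MommeD1/MommeD1 embryos, with log2 ratios of -0.02, -0.05 and 0.05. *Id4*, the least abundant of the Id genes and one expressed in neural progenitors, differed from them at 9.19 and 4.41 FPKM, a log2 ratio of 1.04.

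Among the 6 Hes and Hey repressors the median log2 ratio was -0.06, with 1 past 1.5-fold in each direction. *Hes1* was at 21.8 and 24.4 FPKM (-0.17) and *Hes5*, the main Notch target of neural progenitors, at 26.8 and 18.6 FPKM (0.52). *Heyl* was higher at 4.05 and 2.11 FPKM (0.91), and *Hes3*, which is active near the midbrain and hindbrain boundary, was lower at 4.35 and 7.14 FPKM (-0.70). None of 12 Notch ligands, receptors and fringes passed 1.5-fold, and their median log2 ratio was 0.11. Within them *Notch3* was at 0.20, *Lfng* at 0.12 and *Notch1* at 0.32, and the largest was that of *Mfng*, a glycosyltransferase induced in committed precursors, at 12.8 and 9.47 FPKM (0.43).

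Genes that proneural factors induce in committed precursors lay between the repressors and the neuronal genes. All 17 that were expressed were higher in Smchd1MommeD1/MommeD1 embryos, 6 of them by at least 1.5-fold. Over all expressed loci these shares were 48.1% and 3.20%. The log2 ratios ran from 0.04, which is nearly equal, to 1.46, with a median of 0.39. The abundant *Sox11*, *Rnd2* and *Sox4* had log2 ratios of 0.27, 0.39 and 0.19, whereas *Myt1*, a zinc finger factor of new neurons, was at 2.0 and 0.662 FPKM (1.46). Of 13 expressed pan-neuronal genes, 11 were at least 1.5-fold higher. Their median log2 ratio was 1.29, next to the 1.28 of the newborn-neuron bHLH factors. *Tubb3*, which encodes a neuronal tubulin, was at 99.9 and 37.0 FPKM (1.43), *Stmn2* at 22.6 and 11.5 FPKM (0.97) and *Cntn2*, an axonal adhesion gene, at 4.76 and 0.925 FPKM (2.25). *Gap43* stayed under 1.5-fold at 39.9 and 31.4 FPKM (0.34).

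Expressed genes of dividing neural progenitors and of the dorsal neural tube, where *Atoh1* and *Olig3* act, had smaller median ratios. Of 12 neural progenitor genes 11 were higher, 1 by at least 1.5-fold, with a median log2 ratio of 0.27. *Sox2* was at 47.1 and 43.6 FPKM (0.11), *Msi1* at 82.6 and 65.6 FPKM (0.33) and *Nes* at 59.1 and 41.2 FPKM (0.52), while *Fabp7*, a radial glia gene, passed 1.5-fold at 43.1 and 20.6 FPKM (1.06). Of 11 dorsal patterning genes 9 were expressed, 6 of them higher and 3 lower, none by 1.5-fold, with a median of 0.18. *Gsx1*, at 0.760 and 0.170 FPKM (1.67), and *Gsx2*, at 0.604 and 0.324 FPKM (0.73), were higher but below the filter. *Msx1* and *Msx2* were slightly lower (-0.21 and -0.11), and *Zic1* (0.51) and *Pax7* (0.53) were higher.

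**Figure D4:**
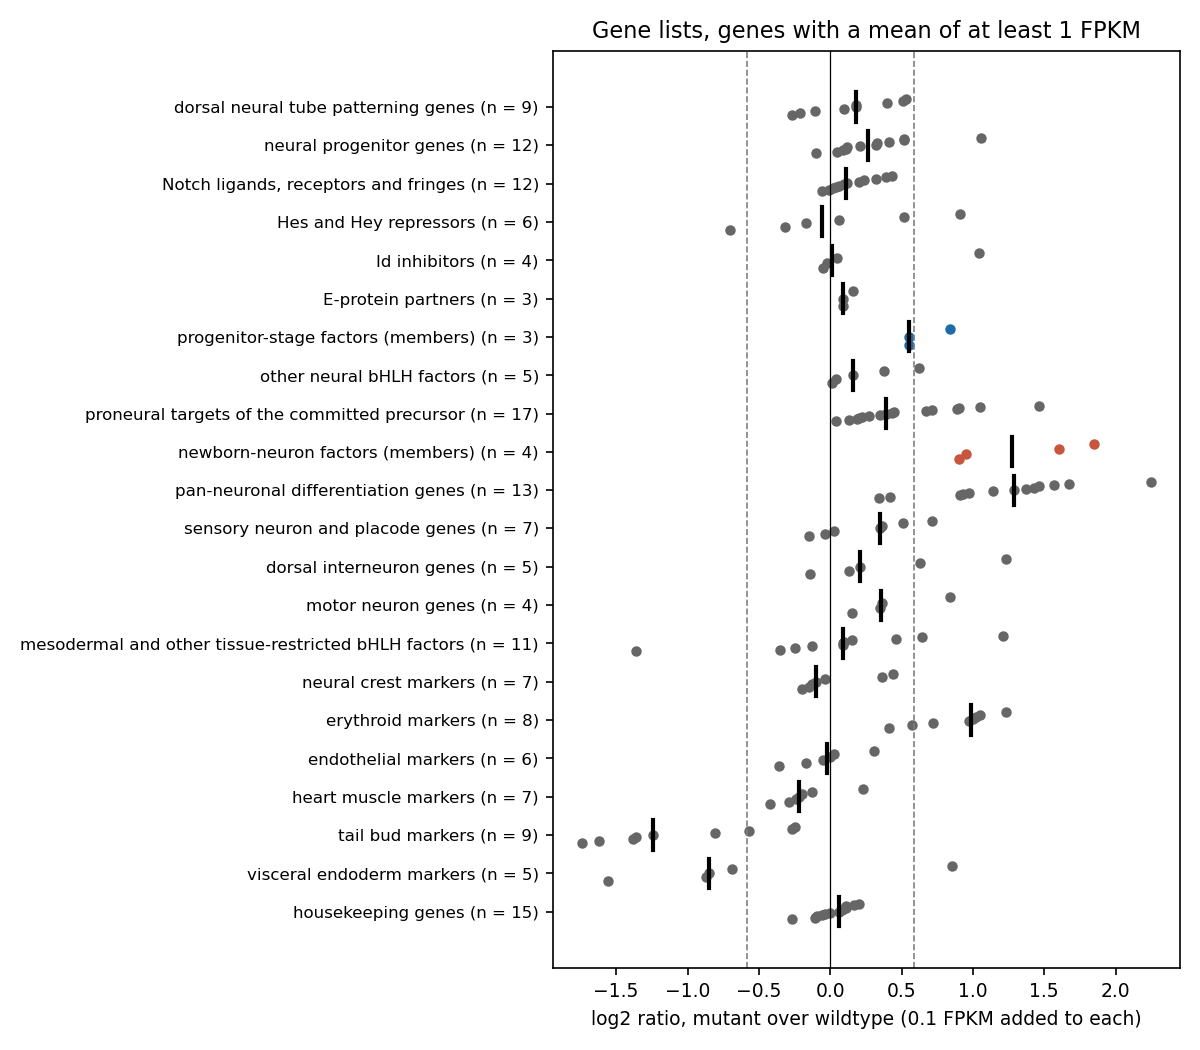
Log2 ratio of Smchd1MommeD1/MommeD1 over Smchd1+/+ for each expressed gene, by list, with black bars at the medians, the members in color and dashed lines at 1.5-fold. The median is 1.28 for newborn-neuron and 1.29 for pan-neuronal genes, 0.55 for the progenitor-stage factors, 0.27 for neural progenitor genes and -1.24 for tail bud markers.

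The genes of the neurons that the members specify were mostly rare at this stage. Of 13 dorsal interneuron genes 5 were expressed, with a median log2 ratio of 0.21 and 2 past 1.5-fold, *Lhx9* at 5.55 and 2.31 FPKM (1.23) and *Lhx2* at 20.3 and 13.1 FPKM (0.63). That median depended on the filter, at 0.59 when it was set to 0.1 FPKM and 0.63 at 5 FPKM. *Lhx2* and *Lhx9* mark the interneurons that arise from *Atoh1* progenitors, although *Lhx2* is also expressed in forebrain and limb. *Pax2*, which is found in inhibitory interneurons downstream of *Ptf1a* and in kidney precursors, was at 2.43 and 2.69 FPKM (-0.14). Among 7 expressed sensory neuron and placode genes the median was 0.35, or 0.03 with a filter at 5 FPKM. Of these 7, *Pou4f1*, a factor of sensory neurons, was the 1 past 1.5-fold at 2.65 and 1.58 FPKM (0.71). The placodal genes *Eya1* and *Six4* were at -0.04 and -0.15. The 4 expressed motor neuron genes were all higher with a median of 0.35, or 0.60 with a filter at 0.1 FPKM. Of these 4, *Isl2* was the 1 past 1.5-fold at 2.07 and 1.12 FPKM (0.84).

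Markers of other tissues also differed between the genotypes, and their part in the differences of the bHLH factors was not tested. All 9 tail bud markers were lower in Smchd1MommeD1/MommeD1 embryos, 6 by at least 1.5-fold, and their sum was 30.4 against 65.4 FPKM, led by *Cdx4* (log2 ratio -1.74) and *Cdx2* (-1.62). All 8 erythroid markers were higher, 6 by at least 1.5-fold, and their sum was 12697 against 6012 FPKM, with log2 ratios of 1.02 for *Hba-x* and 1.23 for *Hbb-y*. Of 8 visceral endoderm markers 5 were expressed, *Afp* was higher and 4 were lower, *Rbp4* among them, each by at least 1.5-fold, and the sum was 29.5 against 39.7 FPKM with a median log2 ratio of -0.85. Neural crest, endothelial and heart muscle markers had no gene past 1.5-fold and medians of -0.10, -0.03 and -0.22, and the 15 housekeeping genes had a median of 0.06. The summed level of the neural progenitor genes was 1.28-fold higher, and that of the pan-neuronal genes 2.13-fold higher. Among the bHLH factors the sum was 1.61-fold higher for the progenitor-stage and 2.49-fold higher for the newborn-neuron members.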

How the data were processed

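Samples were grouped by the genotype in the labels, with 3 male embryos at E9.5 for each genotype. Per the labels and methods, reads were aligned by the authors with TopHat2 2.0.6 and Bowtie2 2.0.2 to mm10, and Cuffdiff 2.0.2 gave the deposited values, 1 FPKM per genotype and locus. The annotation release is not given in the sources used here. The deposited table also holds the authors' fold change, test statistic, p-value, q-value and call, which were not used.

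Loci without a symbol (1110 of 24207) held 36.8% of the FPKM in mutant and 39.3% in wildtype embryos and were left out. Log2 ratios were taken after adding 0.1 FPKM, over loci averaging 1 FPKM or more (called expressed), and counted at 1.5-fold. With 1 pooled value per genotype there was no test. FPKM holds no read counts. Among odorant receptor loci, 59.1% and 43.8% of values above 0 lay within 0.1 of a whole multiple of their median, so reads were not recovered and depth is unknown. A gene listed at several loci was taken at its most abundant entry.

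The members and the gene lists were chosen with earlier results of these data known. All 9 members and *Smchd1* were named. From each pathway list the 3 most abundant genes and the gene with the largest ratio were named, and from each list of another cell type the 2 most abundant. Some genes under this rule are not reported here. Any further gene, such as *Hes3* or *Cxcl14*, was chosen after its value was seen. Locus starts are counted from 1. Of 20271 symbols compared, 8975 RefSeq starts equalled those of the table when its starts were read as counted from 0, against 572 otherwise. The counting of folds was tested on simulated data. Alternatives were other pseudocounts, filters, scalings, a 2-fold mark and other sets of members. Python 3.11.15, numpy 2.4.6, pandas 2.3.3 and matplotlib 3.10.9 were used.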

Additional observations from a re-analysis of the deposited data

How the results depend on the processing

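Of 202 alternatives, 174 left the value within 0.2 on the log2 scale, or a count within 1.5 times, and 28 did not; no ratio past 1.5-fold changed sign in those run. With no pseudocount the log2 ratio of *Ptf1a* was 2.73. With 1 FPKM added it was 0.25, that of *Atoh1* 0.61, *Nhlh1* 1.31 and *Nhlh2* 1.42, the newborn-neuron median was 1.04, the visceral endoderm median -0.63, and 219 loci were past 1.5-fold higher and 75 lower. With a filter at a mean of 0.1 FPKM, which adds *Atoh1* and *Ptf1a*, the progenitor-stage median was 0.84 and the difference of medians 0.43; medians were 0.51 for other neural bHLH factors, 0.59 for dorsal interneuron, 0.60 for motor neuron and -1.07 for visceral endoderm genes, and 894 loci were higher and 342 lower. At 5 FPKM, 1 member was past 1.5-fold (*Neurog1*), no newborn-neuron factor was left for a median, 111 loci were higher and 56 lower, and medians were 0.03 for sensory neuron, 0.63 for dorsal interneuron, 0.16 for neural crest and 0.00 for visceral endoderm genes, over the fewer genes left. At 2-fold, 2 members were higher, and 103 loci were higher and 42 lower. Without the most abundant member of each role, *Neurog2* and *Nhlh1*, the difference of medians was 0.25. Centring on the median locus and rescaling to the same total shifted the log2 ratios by at most 0.02. No log2 ratio could move by 0.2 under these scalings, and all alternatives that used them are among the 174.

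Values were pooled over the embryos of a genotype, so no embryo was left out, and neither the spread between embryos nor an interval from counting was known. No paired analysis was possible because the labels give no replicate numbers and the table has no value per embryo. A fold threshold takes no account of abundance, and differences of *Ptf1a* and *Atoh1* rest on low values.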

Other observations

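Further bHLH genes of neural lineages were below a mean of 1 FPKM. *Neurog3*, the neurogenin of pancreas and hypothalamus, was at 0.875 FPKM in Smchd1MommeD1/MommeD1 and 0.229 FPKM in Smchd1+/+ embryos, *Bhlhe22* was at 0.859 and 0.416 FPKM, and *Bhlhe23* was at 0.667 and 0.239 FPKM. *Neurod2* was at 0.0138 and 0.00490 FPKM, and *Neurod6*, which like *Neurod2* belongs to later cortical neurons, was listed at 0 in both. These genes lay under the filter at 1 FPKM and entered no median taken with it.

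bHLH factors of mesoderm and blood differed in both directions. Of 16 listed, 11 averaged 1 FPKM or more, 7 of them higher and 4 lower in Smchd1MommeD1/MommeD1 embryos. The median log2 ratio of the 11 was 0.09, and the summed level of all 16 was 138 FPKM in both genotypes. *Msgn1*, a factor of presomitic mesoderm that also belongs to the tail bud markers, was at 2.88 and 7.57 FPKM (log2 ratio -1.36). *Myog*, a factor of differentiating muscle, was at 3.98 and 1.67 FPKM (1.21), and *Twist2* was at 12.3 and 7.83 FPKM (0.64). *Twist1*, the most abundant, was at 57.8 and 54.5 FPKM (0.09), *Hand1* at -0.35 and *Tcf15* at -0.25 on the log2 scale.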
